A study of Mus musculus with 18 samples.

Results

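The mitochondrial protein import machinery is the set of receptors, channels, chaperones, motors and proteases that carries proteins made in the cytosol into mitochondria. Its genes were taken from the gene table as every symbol beginning with Timm or Tomm, plus 14 further import genes chosen by name, with pseudogene symbols dropped. The rule used names only and found 39 genes of the 18397 in the table. Of these, 38 had enough reads to be tested. The spans of 21 of the 39 overlap another RefSeq gene, whose reads may be counted with theirs. Those described with values in every library are Grpel1, Immp2l, Pam16, Pmpca, Pmpcb, Timm8b, Timm9, Timm10b, Timm13, Timm21, Timm23, Timm50, Tomm6 and Tomm20. The gene that was not tested, Timm8a2, had a mean level of 0.034 TPM (a measure of RNA per unit of transcript length) over the 18 libraries and at most 3 counts in any of them.

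Nearly all mitochondrial proteins are encoded in the nucleus and enter through the translocase of the outer membrane (TOM complex), and then take separate routes. Proteins with a cleavable N-terminal presequence pass through the Timm23 channel, pulled by an ATP-driven motor, and matrix proteases remove the presequence. Metabolite carriers are handed by small chaperones of the intermembrane space to the Timm22 complex, barrel-shaped proteins are built into the outer membrane by the Samm50 complex, and small cysteine-rich proteins are folded by the Chchd4 disulfide relay.

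The series holds 18 bulk poly(A) RNA-seq libraries in 6 groups of 3, all labelled RAW264.7, a mouse macrophage-like line. Soft and Stiff are cells on a soft or a stiff matrix, Soft+mito and Stiff+mito carry the added label mito, and Soft-TW and Stiff-TW carry the added label TW. What mito and TW stand for is not said in the labels, which also lack any stiffness value, dose, time or genotype. Replicates are called biosamples there, with no word on separate cultures, so every p-value rests on library-to-library spread that may be technical.

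Library totals were 16054637 to 16887244 counts, and the 39 import genes summed to 2364 to 3210 TPM. The defining macrophage markers were at or near 0 in these libraries: Csf1r was at 0.03 to 1.10 TPM, Adgre1 was at 0 in 9 libraries, Spi1 was at 0 in 7 libraries and Ptprc was at most 0.27 TPM. Of 19 macrophage markers looked for, 17 were in the table and 3 (Cd14, Mertk and Lyz2) averaged at least 10 TPM. Cd68 averaged 8.34 and Aif1 2.07 TPM, and 12 of the 17 averaged under 1 TPM. The epithelial keratin Krt8 was at 431 to 730 TPM and the mesenchymal filament gene Vim at 1413 to 4229 TPM, but neither list was high throughout: 8 of 10 epithelial and 3 of 10 fibroblast markers averaged under 1 TPM. These marker values go against the label, so the cells are called here only by their groups.

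Promoter sequences are shown for 6 import genes that were lower in both TW comparisons, chosen after their values were seen, so that the letters can be read beside those values. Each is the 250 bases before the RefSeq gene start in GRCm38.p6, written 5′ to 3′ on the gene's strand. Capitals mark a match to the ETS-factor motif CCGGAAGT or to the NRF1 motif (GCGC, any base, then TGCGC), each searched on both strands. Tomm70a lies on the plus strand of chr16:57121464-57121713, and its ETS match starts 80 bases before the gene start. Timm23 lies on the minus strand of chr14:32201892-32202141, and its ETS match, on the opposite strand, starts 48 bases before the gene start. Chchd4 lies on the minus strand of chr6:91473424-91473673, and its NRF1 match starts 196 bases before the gene start. The other sequences are Timm8a1 on the minus strand of chrX:134541671-134541920, Timm10 on the plus strand of chr2:84826771-84827020 and Tomm5 on the minus strand of chr4:45108114-45108363, and none of the 3 holds a match.
Tomm70a: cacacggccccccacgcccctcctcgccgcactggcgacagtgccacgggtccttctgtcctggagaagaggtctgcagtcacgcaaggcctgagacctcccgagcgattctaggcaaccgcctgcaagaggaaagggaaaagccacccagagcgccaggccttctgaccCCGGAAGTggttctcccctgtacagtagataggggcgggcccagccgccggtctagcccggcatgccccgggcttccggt
Timm23: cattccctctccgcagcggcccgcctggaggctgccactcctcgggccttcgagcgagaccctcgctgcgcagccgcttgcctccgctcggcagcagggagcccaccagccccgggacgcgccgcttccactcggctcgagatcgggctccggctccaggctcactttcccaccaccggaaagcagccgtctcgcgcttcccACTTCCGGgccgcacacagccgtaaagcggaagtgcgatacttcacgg
Chchd4: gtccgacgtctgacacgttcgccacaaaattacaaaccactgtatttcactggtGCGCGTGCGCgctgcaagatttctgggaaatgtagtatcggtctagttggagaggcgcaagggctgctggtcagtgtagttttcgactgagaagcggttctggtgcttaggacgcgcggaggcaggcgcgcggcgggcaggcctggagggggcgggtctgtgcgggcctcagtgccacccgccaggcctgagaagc
Timm8a1: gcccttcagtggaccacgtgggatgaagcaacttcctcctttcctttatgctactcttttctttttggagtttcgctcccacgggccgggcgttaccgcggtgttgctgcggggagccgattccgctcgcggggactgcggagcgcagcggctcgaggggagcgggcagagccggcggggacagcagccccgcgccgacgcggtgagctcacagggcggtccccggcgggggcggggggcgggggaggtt
Timm10: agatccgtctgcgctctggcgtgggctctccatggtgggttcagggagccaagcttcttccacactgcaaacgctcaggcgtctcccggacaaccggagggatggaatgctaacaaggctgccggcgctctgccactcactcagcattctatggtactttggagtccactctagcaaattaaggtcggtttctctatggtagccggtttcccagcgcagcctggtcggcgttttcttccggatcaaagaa
Tomm5: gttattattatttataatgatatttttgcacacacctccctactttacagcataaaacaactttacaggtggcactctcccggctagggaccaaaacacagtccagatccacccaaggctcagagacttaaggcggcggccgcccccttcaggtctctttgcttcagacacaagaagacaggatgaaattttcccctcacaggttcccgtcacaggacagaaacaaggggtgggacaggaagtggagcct

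RefSeq promoters were matched for 35 of the 39 import genes. The ETS motif was in 8 of them (Mtx2, Mtx3, Pmpcb, Timm23, Timm29, Timm8a2, Timmdc1 and Tomm70a), against 2.88% of 32851 promoters of the same length. That background was not limited to genes with reads here or matched in promoter type, so it is not like for like with the import genes. The NRF1 motif was in 3 (Chchd4, Pam16 and Tomm20), against 3.74% of all promoters, and no member promoter held both. A C/EBP-ATF motif, TGATGNAA, was in 0 of the 35 and in 3.45% of all promoters. Of the genes with the ETS motif, Mtx2, Mtx3, Timm23, Timmdc1 and Tomm70a were lower in both TW comparisons. Over all import genes, 18 of the 38 tested were lower in both, and over all genes 2719 of 12245. Pmpcb was called with TW on soft only, where it was higher, Timm29 was called in neither and Timm8a2 was not tested. Of the genes with the NRF1 motif, Chchd4 was lower in both, Tomm20 was lower on stiff only and Pam16 was higher in both. Whether a motif goes with a direction was not tested. These are matches of letters in a short window and show no binding.

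Levels of import genes spanned a wide range per unit of transcript length. The highest mean over the 18 libraries was that of Timm8b at 318 TPM, followed by Timm23 at 234, Tomm5 at 217, Tomm22 at 199 and Timm17a at 152 TPM. The lowest, apart from Timm8a2, were Mtx3 at 6.09 TPM, Immp2l at 7.98, Timm17b at 11.1, Tomm40l at 13.7 and Timm21 at 14.6 TPM. Where the family holds related forms of a gene, their mean levels differed. Tomm40, at 71.7 TPM, stood far above Tomm40l, as did Timm17a above Timm17b. Grpel1, at 35.3 TPM, stood above Grpel2, at 16.0 TPM, by less.

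**Figure D1:**
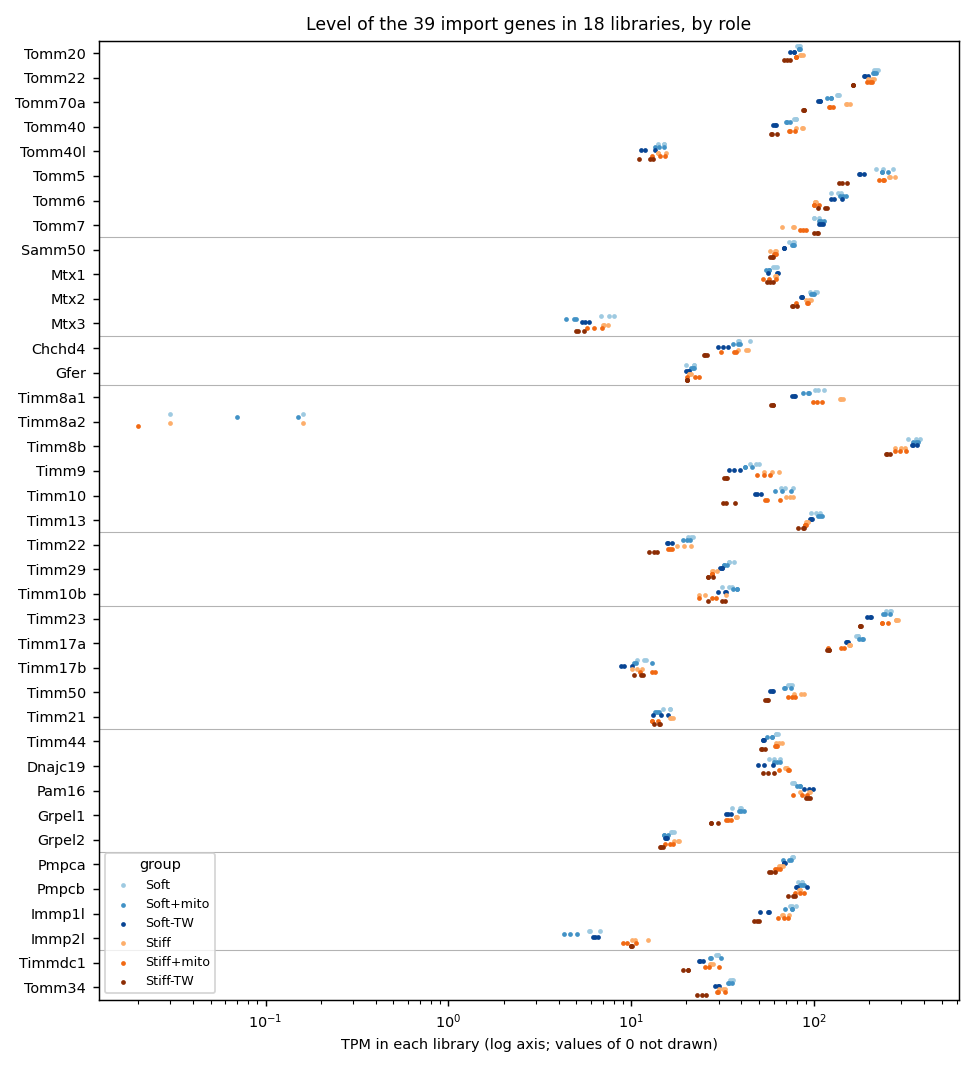
Level of each of the 39 import genes in each of the 18 libraries, in TPM on a log axis, with genes ordered by role and points coloured by group. Timm8b is the highest and Timm8a2, with values of 0 not drawn, the lowest, and for most genes the 6 groups lie close together beside the distance between genes.

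Fitted across all 12245 genes with enough reads, the import genes were more often lower than higher with TW. In Stiff-TW against Stiff, 25 of the 38 tested were lower, where 34.1% of all genes tested were lower, and 3 were higher, against 35.5% of all genes. Their median log2 fold change was -0.23, against 0.0091 for all genes. In Soft-TW against Soft, 18 were lower (all genes 28.0%) and 3 were higher (all genes 28.9%), with a median of -0.09 against -0.0037 for all genes. Scaling by library totals in place of TMM turned the latter split into 24 lower and 2 higher, and took the share of higher genes among all called genes from 50.8% to 38.6%. In bulk RNA, fewer cells of a type and less RNA per cell cannot be told apart.

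The 2 TW comparisons share no library. All 18 genes that were lower with TW on the soft matrix were among the 25 that were lower on the stiff matrix, that is 100% of the first list and 72% of the second, where the same shares over all genes were 79.4% and 65.1%. They were Chchd4, Immp1l, Mtx2, Mtx3, Timm8a1, Timm9, Timm10, Timm22, Timm23, Timm44, Timm50, Timmdc1, Tomm5, Tomm22, Tomm34, Tomm40, Tomm40l and Tomm70a. Pam16 and Tomm7 were higher in both, and no import gene was called in opposite directions. Markers moved with TW too: 8 of the 10 tested macrophage markers were higher in each TW comparison (all genes 28.9% on soft and 35.5% on stiff), and 0 were lower (all genes 28.0% and 34.1%). Their median log2 fold change was 1.41 on soft and 1.28 on stiff, and the highest was 6.18 and 7.03. The sum of the 17, most of it Cd14, Mertk and Lyz2, was 55.1 to 56.0 TPM in Soft, 105 to 108 in Soft-TW, 46.8 to 51.4 in Stiff and 81.6 to 84.6 TPM in Stiff-TW. The sum of 10 fibroblast markers, most of it Vim, was 2358 to 2446 TPM in Soft, 3283 to 3358 in Soft-TW, 1792 to 1831 in Stiff and 4717 to 4752 TPM in Stiff-TW. Gene by gene, Stiff against Soft mostly went the other way from this sum. Of the 7 tested fibroblast markers, 5 were higher (all genes 29.1%) and 2 lower (all genes 24.7%), with a median of 0.76. In Stiff+mito against Soft+mito, 5 were higher (all genes 32.7%) and 1 lower (all genes 30.8%), with a median of 0.94. The sum of 10 epithelial markers, nearly all of it Krt8 and Krt18, was 999 to 1029 TPM in Soft, 764 to 783 in Soft-TW, 696 to 714 in Stiff and 671 to 683 TPM in Stiff-TW. In Soft+mito and Stiff+mito the macrophage sums were 65.1 to 68.8 and 60.4 to 64.5 TPM, the fibroblast sums 2655 to 2717 and 2413 to 2504 TPM, and the epithelial sums 1031 to 1043 and 733 to 759 TPM. The part of these marker differences in the import results was not tested.

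With mito, more import genes were higher than lower on the soft matrix, and more lower than higher on the stiff matrix. In Soft+mito against Soft, 8 import genes were higher (all genes 14.8%) and 2 lower (all genes 11.9%). In Stiff+mito against Stiff, 1 was higher (all genes 15.6%) and 14 were lower (all genes 17.8%). Scaling by library totals gave 7 higher and 3 lower on the soft matrix, where the share of higher genes among all called genes went from 55.5% to 38.3%, and left the stiff counts at 1 and 14. Tomm20, Timm17a and Grpel1 were higher with mito on the soft matrix and lower with mito on the stiff matrix, while Mtx3 and Timm8a1 were lower and Tomm7 higher on both.

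Matrix comparisons called import genes in both directions. In Stiff against Soft, 11 import genes were higher (all genes 29.1%) and 8 lower (all genes 24.7%), both near the background. With library totals the split was 9 higher and 12 lower, and the share of higher genes among all called genes went from 54.1% to 44.1%. In Stiff+mito against Soft+mito, 5 were higher (all genes 32.7%) and 17 lower (all genes 30.8%). In Stiff-TW against Soft-TW, 2 were higher (all genes 27.6%) and 21 lower (all genes 26.7%). These 3 matrix comparisons share no library. In all 3, 7 import genes (18.4%) were lower, against 12.7% of all genes, and 1, Immp2l, was higher, against 14.4% of all genes. The 7 were Pmpca, Samm50, Timm8b, Timm13, Timm17a, Timm29 and Tomm6. For Timm13, the Stiff against Soft call had an adjusted p of 0.0441 (edgeR), and the libraries of the groups overlapped.

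**Figure D2:**
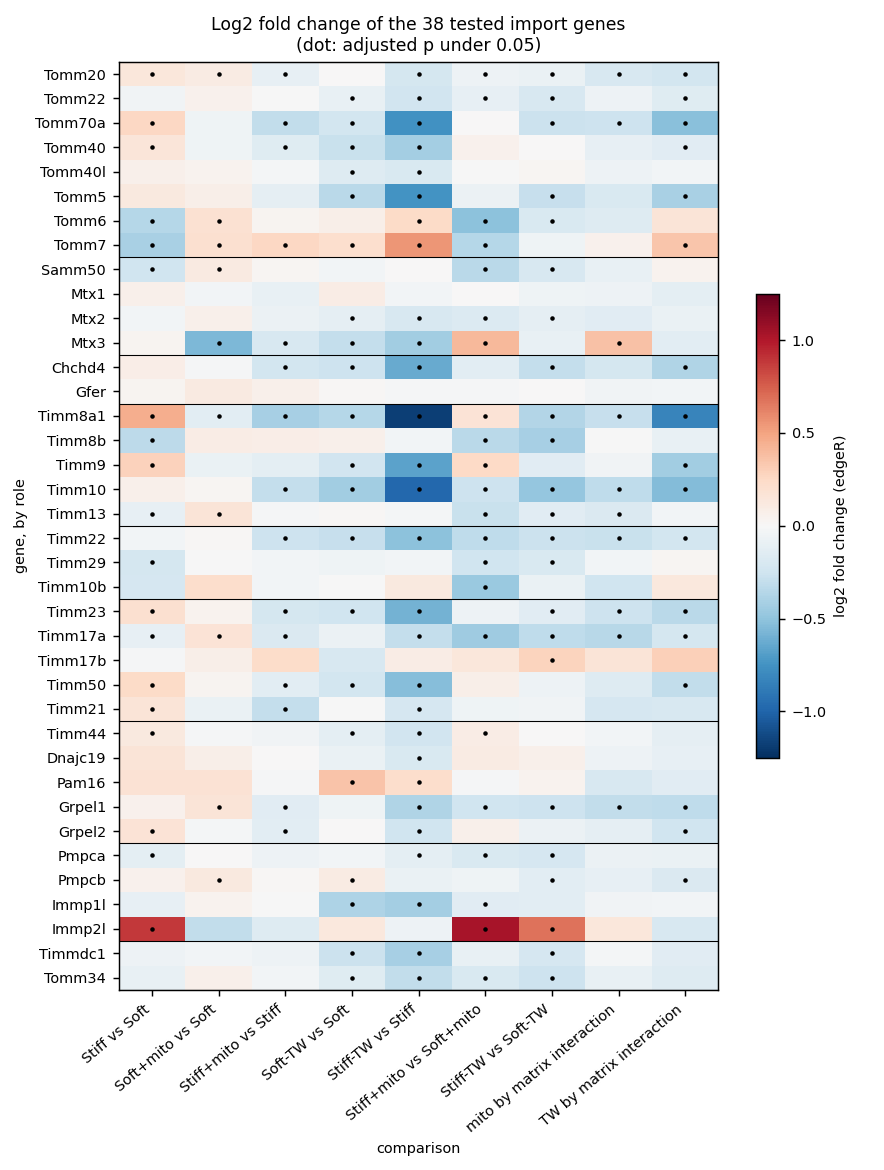
Log2 fold change (colour) of the 38 tested import genes (rows, by role) in 7 comparisons of groups and 2 interactions (columns), with a dot where the adjusted p was under 0.05. The Stiff-TW against Stiff column is the darkest blue, with 25 genes lower, and Tomm7, Tomm6 and Pam16 are the genes called higher in it.

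Summed over the family, CPM (counts scaled to the same library size, as in the test) were 1806, 1830 and 1840 in the Stiff-TW libraries and 2271, 2279 and 2271 in the Stiff libraries. The Soft-TW libraries summed to 2052, 2041 and 2045 CPM and the Soft libraries to 2149, 2216 and 2221 CPM. Soft+mito libraries reached 2229.6, 2263 and 2299 CPM, and Stiff+mito libraries 2095, 2087 and 2100.4 CPM. Stiff-TW was thus the lowest group and did not overlap any other, while Soft+mito overlapped Stiff. These sums weigh genes by their reads, so Tomm70a and Tomm20 count for much of them.

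In the outer membrane gate, the largest changes in Stiff-TW against Stiff and in Stiff+mito against Stiff were those of the receptor Tomm70a, which receives carrier precursors together with cytosolic chaperones (gene ID 28185, chr16:57121714-57154530). Its CPM was 338, 353 and 335 in the Stiff libraries, 282, 270.1 and 276 in Stiff+mito and 204, 202 and 201 in Stiff-TW. On the soft matrix it was 281, 291 and 283 in Soft, 262, 279 and 283 in Soft+mito and 246, 240.3 and 243 in Soft-TW. Every Stiff library lay above every other library, and the Stiff-TW libraries were the lowest of the 18. Tomm70a fell with TW on the stiff matrix (log2 fold change -0.76 ± 0.02 SE, adjusted p = 1.16e-51, edgeR quasi-likelihood test) and by less on the soft matrix (-0.23 ± 0.02 SE, adjusted p = 2.59e-14, edgeR). With mito it fell on the stiff matrix (-0.31 ± 0.02 SE, adjusted p = 4.3e-21, edgeR), while the soft difference of -0.05 was not called. It was higher in Stiff than in Soft (0.26 ± 0.02 SE, adjusted p = 5.46e-18, edgeR) and lower in Stiff-TW than in Soft-TW (-0.26 ± 0.03 SE, adjusted p = 3.6e-16, edgeR).

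The presequence receptor Tomm20 (gene ID 67952, chr8:126930664-126945921) was lowest in Stiff-TW among the stiff groups. Its CPM was 234, 238 and 231 in Soft, 247, 253 and 255 in Soft+mito and 239, 241 and 227 in Soft-TW. On the stiff matrix it was 263, 258 and 253 in Stiff, 214, 220.4 and 229.9 in Stiff-TW and 237, 241 and 244 in Stiff+mito. Tomm20 fell with TW on stiff (-0.22 ± 0.03 SE, adjusted p = 3.27e-13, edgeR), while the soft difference of 0.01 was not called, and Stiff exceeded Soft by 0.14 on the log2 scale. It rose with mito on the soft matrix by a log2 fold change of 0.10 and fell on the stiff matrix by 0.10, and the interaction was -0.20 ± 0.04 SE, adjusted p = 2.39e-06 (edgeR). The central receptor Tomm22 (gene ID 223696, chr15:79670868-79672862) was at 92.6, 93.3 and 98.0 CPM in Soft, 97.0, 95.9 and 102 in Soft+mito and 90.5, 87.3 and 89.0 in Soft-TW. It was at 87.7, 92.7 and 94.9 CPM in Stiff, 77.5, 77.4 and 77.6 in Stiff-TW and 93.1, 89.1 and 92.4 in Stiff+mito. The Stiff-TW libraries lay below all others, at a log2 fold change against Stiff of -0.24 ± 0.04 SE, adjusted p = 2.75e-09 (edgeR).

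Tomm40, the barrel that forms the pore of the TOM complex (gene ID 53333, chr7:19701313-19715442), was lower with TW on both matrices. Its CPM was 59.6, 62.7 and 62.7 in Soft, 60.6, 57.7 and 60.2 in Soft+mito and 50.6, 51.9 and 49.6 in Soft-TW. On the stiff matrix it was 70.2, 64.8 and 70.2 in Stiff, 49.3, 49.8 and 53.5 in Stiff-TW and 63.9, 60.8 and 60.3 in Stiff+mito. The log2 fold changes with TW were -0.28 ± 0.04 SE, adjusted p = 8.27e-09 on soft and -0.43 ± 0.04 SE, adjusted p = 1.9e-16 on stiff (edgeR), and the soft and stiff TW libraries did not overlap their controls. Its relative Tomm40l, at 11.0 to 15.5 TPM, was also called lower with TW, at -0.16 and -0.20 on the log2 scale, but its reads are partly shared with other genes.

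The small subunits of the TOM complex went in opposite directions. Tomm5 (gene ID 68512, chr4:45105209-45108113) fell with TW: its CPM was 51.4, 53.9 and 52.8 in Stiff and 29.6, 31.2 and 33.6 in Stiff-TW, and 42.4, 48.3 and 55.0 in Soft and 39.1, 38.1 and 38.2 in Soft-TW. The mito libraries were at 49.1, 53.2 and 51.0 CPM on soft and 49.5, 47.1 and 49.3 CPM on stiff, and neither mito difference was called. Neither pair of TW and control groups overlapped, and the log2 fold changes were -0.74 ± 0.06 SE, adjusted p = 9.97e-14 on stiff and -0.34 ± 0.06 SE, adjusted p = 6.36e-06 on soft (edgeR).

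Tomm7 (gene ID 66169, chr5:23838944-23844145), which also has a part in holding the kinase PINK1 at the outer membrane, rose with TW and with mito on both matrices. Its CPM was 39.3, 33.7 and 38.3 in Stiff, 52.6, 55.8 and 55.2 in Stiff-TW and 45.8, 44.3 and 43.0 in Stiff+mito. On soft it was 47.1, 48.6 and 51.8 in Soft, 55.8, 54.3 and 59.8 in Soft+mito and 56.4, 55.4 and 58.4 in Soft-TW. Stiff libraries were the lowest of all 18, and the Stiff-TW libraries overlapped the Soft-TW libraries. The log2 fold changes were 0.56 ± 0.05 SE, adjusted p = 4.18e-19 for TW on stiff, 0.21 ± 0.05 SE, adjusted p = 4.37e-05 for TW on soft, 0.26 ± 0.05 SE, adjusted p = 1.59e-05 for mito on stiff and 0.20 ± 0.04 SE, adjusted p = 0.000169 for mito on soft (edgeR). Stiff against Soft was -0.41 ± 0.05 SE, adjusted p = 5.24e-12 and Stiff+mito against Soft+mito -0.35 ± 0.05 SE, adjusted p = 5.97e-11 (edgeR), while Stiff-TW against Soft-TW, at -0.06, was not called.

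Tomm6 (gene ID 66119, chr17:47686645-47688386) was lower on the stiff matrix in all 3 settings. Its CPM was 47.7, 53.5 and 56.0 in Soft, 59.1, 57.4 and 63.3 in Soft+mito and 51.6, 54.0 and 60.0 in Soft-TW. It was 40.8, 40.4 and 41.6 in Stiff, 50.1, 49.4 and 45.4 in Stiff-TW and 40.7, 43.9 and 41.3 in Stiff+mito. The log2 fold changes of stiff against soft were -0.35 ± 0.05 SE, adjusted p = 1.45e-07, -0.51 ± 0.05 SE, adjusted p = 1.67e-12 with mito and -0.19 ± 0.05 SE, adjusted p = 0.00135 with TW (edgeR). Tomm6 rose with TW on stiff (0.24 ± 0.06 SE, adjusted p = 0.000163, edgeR) and with mito on soft (0.19 ± 0.05 SE, adjusted p = 0.00192, edgeR). The Tomm6 gene overlaps an antisense gene and 3 other genes, and no source used here says whether strand was used in counting, so its reads cannot be told apart from theirs.

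**Figure D3:**
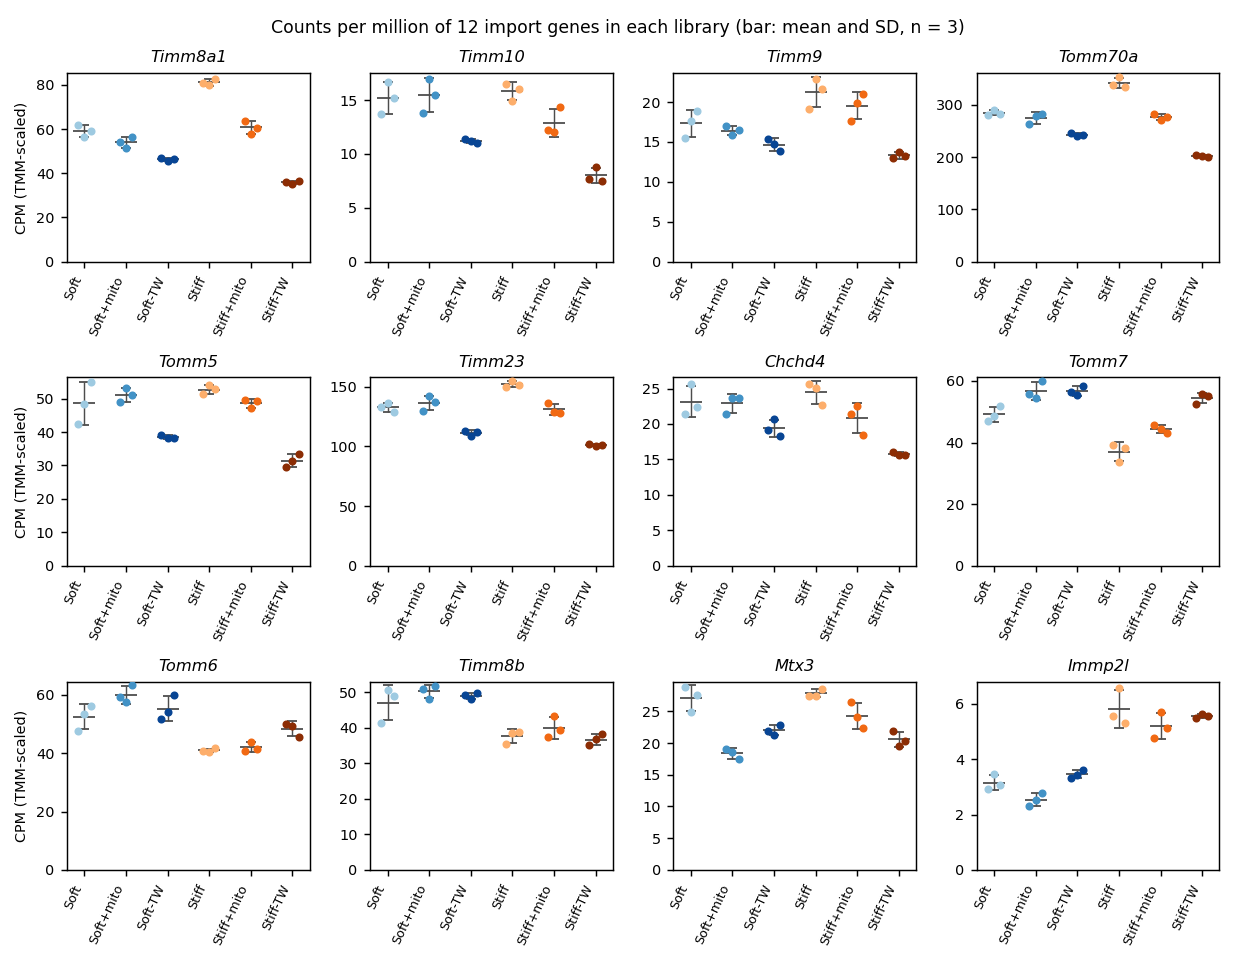
CPM of 12 import genes in each library, with bars for the mean and SD of 3 libraries, from 0 on each axis. Timm8a1, Tomm70a and Timm23 peak in Stiff and are lowest in Stiff-TW, Tomm7 is lowest in Stiff, Mtx3 is lowest in Soft+mito, and Immp2l is higher in every stiff group.

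Among genes for sorting and assembly in the outer membrane, Samm50, the core barrel of the assembly complex (gene ID 68653, chr15:84192240-84216083), was lower on stiff in all 3 matrix comparisons. Its CPM was 137, 148 and 148 in Soft, 156, 155 and 158 in Soft+mito and 140.0, 142 and 141 in Soft-TW. On stiff it was 124, 116 and 125 in Stiff, 124, 122 and 121 in Stiff-TW and 120.4, 126 and 125 in Stiff+mito. No stiff library reached any soft library, and the log2 fold changes were -0.25 ± 0.03 SE, adjusted p = 6.34e-12, -0.34 ± 0.03 SE, adjusted p = 7.69e-19 with mito and -0.20 ± 0.03 SE, adjusted p = 9.1e-09 with TW (edgeR). The TW differences of -0.04 on soft and 0.01 on stiff were not called. Its partners Mtx1 and Mtx2 were at 52.4 to 63.2 and 75.3 to 104 TPM. Mtx1 was called in no comparison, and Mtx2 was lower with TW at -0.12 on soft and -0.20 on stiff.

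Mtx3, a metaxin of low abundance (gene ID 382793, chr13:92844743-92858230), gave the largest mito change on soft. Its CPM was 28.8, 24.9 and 27.6 in Soft and 19.1, 18.6 and 17.4 in Soft+mito, groups that did not overlap. The Soft-TW libraries were at 22.0, 21.2 and 22.8 CPM. The stiff libraries were at 27.5, 27.4 and 28.6 in Stiff, 21.8, 19.6 and 20.3 in Stiff-TW and 26.4, 24.1 and 22.4 in Stiff+mito. The log2 fold change with mito was -0.56 ± 0.07 SE, adjusted p = 5.06e-12 on soft and -0.20 ± 0.06 SE, adjusted p = 0.00896 on stiff, and the difference between these changes was 0.36 ± 0.09 SE, adjusted p = 0.00107 (edgeR). Mtx3 also fell with TW, at -0.30 on soft and -0.44 on stiff on the log2 scale, and was higher in Stiff+mito than in Soft+mito (0.40 ± 0.07 SE, adjusted p = 1.03e-07, edgeR).

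The estimated split of Mtx3 reads between its transcripts also differed between groups. Its curated transcript took 68.6% ± 8.0 (SD, n = 3) of the gene's reads in Soft and 51.6% ± 5.6 in Soft+mito. A predicted transcript took 22.1% ± 7.7 and 41.3% ± 9.0. On stiff the curated transcript took 73.9% ± 15.5 in Stiff and 57.2% ± 4.2 in Stiff+mito. These shares are means of the authors' estimated transcript counts, they vary widely between libraries, and no test was made on them. For Tomm40, a second curated transcript took 16.3% ± 4.4 of reads in Soft and 9.0% ± 2.5 in Soft-TW, and 12.2% ± 0.9 in Stiff and 5.2% ± 2.1 in Stiff-TW.

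The disulfide relay is made of the oxidoreductase Chchd4, which introduces disulfide bonds into arriving proteins, and of Gfer, which reoxidises it. Chchd4 (gene ID 72170, chr6:91464276-91473423) was at 25.7, 25.0 and 22.6 CPM in Stiff, 16.1, 15.7 and 15.6 in Stiff-TW and 21.5, 22.5 and 18.5 in Stiff+mito. The soft libraries were at 21.4, 25.6 and 22.4 in Soft, 21.4, 23.7 and 23.6 in Soft+mito and 19.1, 20.7 and 18.3 in Soft-TW. Stiff-TW libraries lay below all others. Chchd4 fell with TW on stiff (-0.63 ± 0.07 SE, adjusted p = 3.79e-13, edgeR) and on soft (-0.26 ± 0.07 SE, adjusted p = 0.00099, edgeR), and with mito on stiff (-0.23 ± 0.07 SE, adjusted p = 0.00496, edgeR).

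Gfer (gene ID 11692, chr17:24693190-24696156) was called in no comparison of groups. Its CPM was 17.6, 20.2 and 20.5 in Soft, 20.4, 21.2 and 21.6 in Soft+mito and 20.0, 19.7 and 19.3 in Soft-TW. Stiff-matrix values were 19.6, 19.9 and 20.3 in Stiff, 19.7, 19.5 and 20.0 in Stiff-TW and 21.8, 19.4 and 21.5 in Stiff+mito. All 18 libraries lay in a narrow band, and Gfer's counts hold shared reads. The ratio of Chchd4 to Gfer in TPM was 1.98 ± 0.15 (SD, n = 3) in Stiff and 1.26 ± 0.02 in Stiff-TW, and 1.91 ± 0.13 in Soft and 1.56 ± 0.08 in Soft-TW.

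The small Tim chaperones, which shield hydrophobic proteins in the intermembrane space, held the largest drops of the family. Timm8a1, the mouse counterpart of the gene mutated in human deafness-dystonia syndrome (gene ID 30058, chrX:134537256-134541670), was at 80.8, 79.8 and 82.9 CPM in Stiff, 36.1, 35.2 and 36.3 in Stiff-TW and 63.9, 57.9 and 60.7 in Stiff+mito. Soft-matrix values were 61.9, 56.5 and 59.3 in Soft, 54.3, 51.5 and 56.5 in Soft+mito and 46.7, 45.5 and 46.6 in Soft-TW. Stiff was the highest group and Stiff-TW the lowest, and neither overlapped any other. The log2 fold change with TW was -1.18 ± 0.04 SE, adjusted p = 1.2e-46 on stiff and -0.36 ± 0.04 SE, adjusted p = 8.14e-12 on soft, with an interaction of -0.82 ± 0.06 SE, adjusted p = 1.26e-21 (edgeR).

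With mito, Timm8a1 fell on stiff (-0.42 ± 0.04 SE, adjusted p = 2.62e-16, edgeR). On soft the change of -0.13 ± 0.04 SE, adjusted p = 0.013 was lost without Soft replicate 1 (-0.10, adjusted p = 0.134) and without Soft+mito replicate 2 (-0.09, adjusted p = 0.137, edgeR), and with DESeq2 (adjusted p = 0.0648). The matrix difference turned over: Timm8a1 was higher in Stiff than in Soft (0.45 ± 0.04 SE, adjusted p = 4.63e-19) and in Stiff+mito than in Soft+mito (0.17 ± 0.04 SE, adjusted p = 0.00028), but lower in Stiff-TW than in Soft-TW (-0.37 ± 0.05 SE, adjusted p = 2.6e-10, all edgeR).

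Timm9 and Timm10 form a chaperone ring together. Timm10 (gene ID 30059, chr2:84827021-84830213) was at 16.5, 14.9 and 16.0 CPM in Stiff, 7.70, 8.78 and 7.52 in Stiff-TW and 12.2, 12.1 and 14.4 in Stiff+mito. On soft it was at 13.7, 16.7 and 15.1 in Soft, 13.8, 17.0 and 15.5 in Soft+mito and 11.4, 11.2 and 11.0 in Soft-TW. The TW libraries lay below every library without TW on both matrices. Timm10 fell with TW on stiff (-0.98 ± 0.09 SE, adjusted p = 4.4e-17, edgeR) and on soft (-0.44 ± 0.09 SE, adjusted p = 8.46e-06, edgeR), and with mito on stiff (-0.30 ± 0.08 SE, adjusted p = 0.00337, edgeR). It was also lower in Stiff-TW than in Soft-TW (-0.49 ± 0.10 SE, adjusted p = 1.93e-05, edgeR).

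Timm9 (gene ID 30056, chr12:71123172-71136708) was at 19.2, 22.9 and 21.6 CPM in Stiff, 12.9, 13.8 and 13.2 in Stiff-TW and 17.7, 19.8 and 21.0 in Stiff+mito. The soft libraries were at 15.6, 17.6 and 18.8 in Soft, 16.9, 15.8 and 16.4 in Soft+mito and 15.4, 14.8 and 13.8 in Soft-TW. Stiff and Stiff-TW did not overlap. Timm9 fell with TW on stiff (-0.67 ± 0.08 SE, adjusted p = 4e-13, edgeR) and on soft (-0.24 ± 0.08 SE, adjusted p = 0.00629, edgeR). It was higher in Stiff than in Soft (0.29 ± 0.07 SE, adjusted p = 0.000392, edgeR) and in Stiff+mito than in Soft+mito (0.25 ± 0.07 SE, adjusted p = 0.00248, edgeR), the latter lost without Stiff+mito replicate 3 (0.18, adjusted p = 0.055). The Timm9 to Timm10 ratio in TPM was 0.80 ± 0.11 (SD, n = 3) in Stiff and 0.97 ± 0.08 in Stiff-TW, which overlap.

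Timm8b and Timm13 were called in neither comparison of TW with its control. Timm8b, a relative of Timm8a1 (gene ID 30057, chr9:50603901-50605320), was at 41.4, 50.6 and 49.0 CPM in Soft, 50.8, 48.1 and 51.7 in Soft+mito and 49.2, 48.0 and 49.7 in Soft-TW. Its CPM on stiff was 35.3, 38.6 and 38.8 in Stiff, 35.1, 36.8 and 38.1 in Stiff-TW and 37.3, 43.2 and 39.2 in Stiff+mito. Its TW differences were 0.06 on soft and -0.03 on stiff. Stiff against soft was -0.32 ± 0.06 SE, adjusted p = 1.99e-06, -0.33 ± 0.05 SE, adjusted p = 4.12e-07 with mito and -0.42 ± 0.06 SE, adjusted p = 7.9e-09 with TW (edgeR). The Timm8b span overlaps that of Nkapd1. The ratio of Timm8b to Timm8a1 in TPM was 2.12 ± 0.15 (SD, n = 3) in Stiff and 4.28 ± 0.14 in Stiff-TW, and 3.35 ± 0.46 in Soft and 4.54 ± 0.09 in Soft-TW.

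Timm13, the ring partner of Timm8a1 (gene ID 30055, chr10:80899450-80900969), was at 52.3, 60.2 and 57.7 CPM in Soft, 64.0, 61.6 and 64.8 in Soft+mito and 56.9, 58.0 and 56.5 in Soft-TW. On stiff it was at 52.8, 52.5 and 53.5 in Stiff, 49.6, 53.1 and 53.0 in Stiff-TW and 52.0, 52.5 and 52.7 in Stiff+mito. The stiff groups lay together at about the level of the lowest Soft library. Timm13 rose with mito on soft (0.16 ± 0.04 SE, adjusted p = 0.00121, edgeR), a call lost without Soft replicate 1 (0.11, adjusted p = 0.064). The Timm8a1 to Timm13 ratio in TPM was 1.53 ± 0.02 (SD, n = 3) in Stiff, 0.69 ± 0.03 in Stiff-TW and 1.16 ± 0.06 in Stiff+mito.

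**Figure D4:**
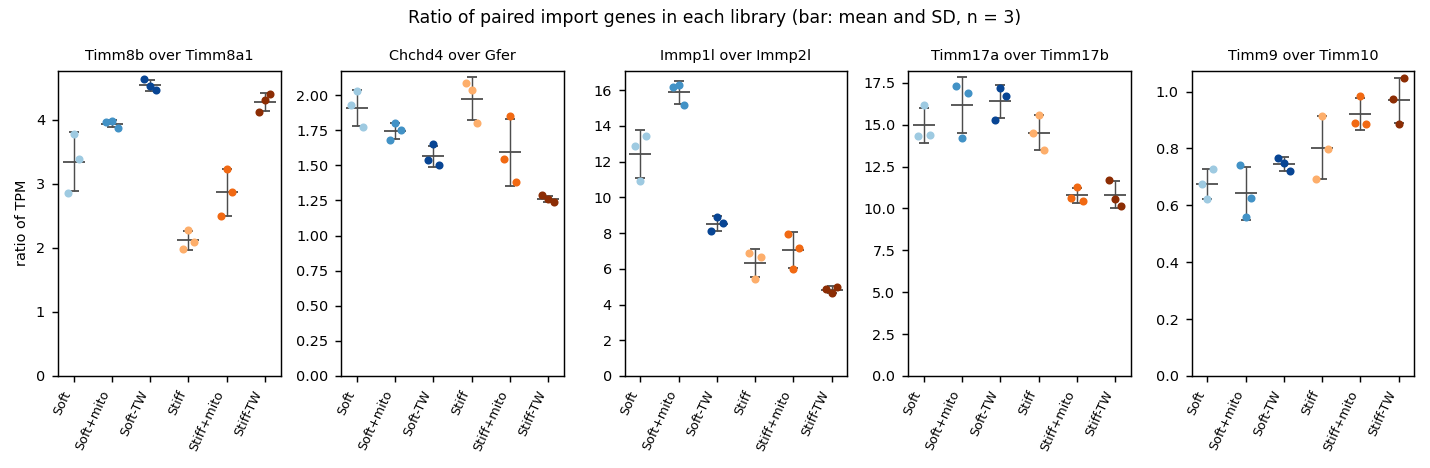
Ratio of TPM of 5 pairs of import genes in each library, with bars for the mean and SD of 3 libraries. Timm8b over Timm8a1 is lowest in Stiff and highest in the TW groups, Chchd4 over Gfer is lowest in Stiff-TW, Immp1l over Immp2l is lower in the stiff groups than in the matching soft groups, and Timm17a over Timm17b is lower in Stiff+mito and Stiff-TW than in the other groups.

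The carrier translocase is built on the channel protein Timm22 (gene ID 56322, chr11:76406925-76416313). Its CPM was 29.0, 34.7 and 31.5 in Stiff, 22.5, 20.9 and 23.2 in Stiff-TW and 25.6, 26.5 and 27.3 in Stiff+mito. Soft-matrix values were 33.0, 31.7 and 32.7 in Soft, 33.7, 31.3 and 33.7 in Soft+mito and 27.4, 26.5 and 26.0 in Soft-TW. Stiff-TW was below every other group. Timm22 fell with TW, at -0.51 ± 0.06 SE, adjusted p = 6.31e-13 on stiff and -0.29 ± 0.06 SE, adjusted p = 8.65e-06 on soft, and with mito, at -0.26 ± 0.06 SE, adjusted p = 0.000154 on stiff (edgeR).

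The other members of that translocase were not called with TW. Timm29, a subunit that stabilises Timm22, was at 26.2 to 36.3 TPM, and its TW changes of -0.06 on soft and -0.03 on stiff were not called. Timm29 was lower on stiff in all 3 matrix comparisons, at -0.22, -0.25 with mito and -0.19 with TW. Timm10b, which docks the chaperone ring onto the channel (gene ID 14356, chr7:105640445-105655748), was at 10.6, 10.6 and 11.8 CPM in Soft, 12.2, 12.9 and 13.3 in Soft+mito and 11.0, 11.6 and 10.2 in Soft-TW. The stiff libraries were at 8.79, 10.9 and 8.82 in Stiff, 11.4, 9.28 and 10.3 in Stiff-TW and 9.85, 8.64 and 9.38 in Stiff+mito. The mito groups did not overlap between matrices, and that comparison was its only call (-0.46 ± 0.09 SE, adjusted p = 8.05e-06, edgeR).

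The presequence translocase has the channel Timm23 (gene ID 53600, chr14:32180166-32201891) at its centre. Its CPM was 149.9, 155 and 151 in Stiff, 102, 100.1 and 101 in Stiff-TW and 136, 128 and 128 in Stiff+mito. On soft it was 133, 136 and 129 in Soft, 129.9, 142 and 137 in Soft+mito and 113, 109 and 112 in Soft-TW. The order of the groups followed that of Tomm70a at its ends, with Stiff highest and Stiff-TW lowest, neither overlapping another group. Timm23 fell with TW on stiff (-0.59 ± 0.03 SE, adjusted p = 1.17e-33, edgeR) and on soft (-0.25 ± 0.03 SE, adjusted p = 1.48e-11, edgeR), and with mito on stiff (-0.22 ± 0.03 SE, adjusted p = 2.39e-09, edgeR). Stiff exceeded Soft by 0.20 ± 0.03 SE, adjusted p = 1.14e-08 on the log2 scale (edgeR).

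Timm17a, the main Timm17 form here (gene ID 21854, chr1:135301535-135313737), was at 62.2, 64.4 and 62.8 CPM in Soft, 71.4, 71.4 and 70.1 in Soft+mito and 59.9, 59.4 and 60.1 in Soft-TW. Stiff-matrix values were 59.2, 59.1 and 58.6 in Stiff, 48.4, 48.4 and 47.5 in Stiff-TW and 45.5, 56.4 and 54.2 in Stiff+mito. Timm17a rose with mito on soft (0.17 ± 0.04 SE, adjusted p = 0.000692, edgeR) and fell with mito on stiff (-0.18 ± 0.04 SE, adjusted p = 0.000716, edgeR), and the groups did not overlap in either case. The Stiff+mito libraries spread widely (SD 5.77 CPM, against 0.31 in Stiff), with replicate 1 at 45.5 CPM the lowest. That stiff call was not among those recomputed with single libraries left out. The difference between these changes was -0.35 ± 0.06 SE, adjusted p = 2.74e-06 (edgeR). Stiff+mito was lower than Soft+mito (-0.45 ± 0.04 SE, adjusted p = 7.64e-17, edgeR), and Stiff-TW lower than Soft-TW (-0.32 ± 0.05 SE, adjusted p = 2.83e-09, edgeR). As background, its protein is known to be degraded under translational stress.

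Its relative Timm17b (gene ID 21855, chrX:7899336-7907652) was at 10.0, 9.17 and 9.98 CPM in Soft, 9.51, 11.6 and 9.55 in Soft+mito and 9.14, 8.00 and 8.27 in Soft-TW. Its CPM on stiff was 9.59, 9.02 and 10.2 in Stiff, 9.53, 10.5 and 10.7 in Stiff-TW and 9.91, 11.6 and 12.2 in Stiff+mito. Its single call, higher in Stiff-TW than in Soft-TW (0.28 ± 0.10 SE, adjusted p = 0.0159, edgeR), was lost without Soft-TW replicate 2 or 3 (0.23 and 0.26, adjusted p = 0.084 and 0.0501) and without Stiff-TW replicate 2 or 3 (0.25 and 0.23, adjusted p = 0.058 and 0.080), and with DESeq2 (adjusted p = 0.0692). The Timm17a to Timm17b ratio in TPM was 14.5 ± 1.0 (SD, n = 3) in Stiff, 10.8 ± 0.8 in Stiff-TW and 10.8 ± 0.4 in Stiff+mito, against 15.0 ± 1.0 in Soft, 16.2 ± 1.7 in Soft+mito and 16.4 ± 1.0 in Soft-TW.

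Timm50, the receptor that takes presequences from the outer membrane (gene ID 66525, chr7:28305516-28312046), was at 48.6, 46.5 and 42.6 CPM in Stiff, 31.9, 32.1 and 31.3 in Stiff-TW and 39.7, 43.9 and 42.0 in Stiff+mito. The soft libraries were at 38.9, 39.3 and 38.5 in Soft, 38.4, 41.5 and 39.2 in Soft+mito and 32.4, 33.5 and 33.7 in Soft-TW. It fell with TW on stiff (-0.53 ± 0.05 SE, adjusted p = 5.1e-17, edgeR) and on soft (-0.23 ± 0.05 SE, adjusted p = 7.8e-05, edgeR), and was higher in Stiff than in Soft (0.24 ± 0.05 SE, adjusted p = 1.18e-05, edgeR). Timm21, which links the translocase to the respiratory chain (gene ID 67105), was at 19.6, 18.6 and 20.4 CPM in Soft, 18.3, 18.8 and 18.3 in Soft+mito and 17.5, 21.4 and 19.5 in Soft-TW. On stiff it was at 21.5, 21.9 and 22.3 in Stiff, 18.2, 19.1 and 19.5 in Stiff-TW and 17.1, 18.7 and 17.7 in Stiff+mito. The Stiff libraries stood above the other stiff libraries, and the drop with mito was -0.30 ± 0.07 SE, adjusted p = 0.000301 (edgeR).

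The import motor draws presequence proteins into the matrix. Its membrane anchor Timm44 (gene ID 21856, chr8:4259731-4275905) was at 54.4, 57.2 and 55.4 CPM in Soft, 55.4, 55.9 and 53.8 in Soft+mito and 50.4, 51.7 and 50.8 in Soft-TW. The stiff libraries were at 60.5, 58.7 and 62.5 in Stiff, 51.0, 50.0 and 52.6 in Stiff-TW and 58.9, 57.9 and 58.9 in Stiff+mito. It fell with TW, at -0.13 ± 0.04 SE, adjusted p = 0.00703 on soft and -0.24 ± 0.04 SE, adjusted p = 2.08e-07 on stiff (edgeR). Stiff+mito exceeded Soft+mito by 0.09 ± 0.04 SE, adjusted p = 0.0463 on the log2 scale (edgeR), a call that was lost when any single library of those groups was left out, with adjusted p = 0.055 to 0.154, and under every alternative with all libraries except the replicate block (adjusted p = 0.0846 to 0.182).

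Pam16, which restrains the J protein of the motor (gene ID 66449, chr16:4616466-4624946), rose with TW. Its CPM was 11.0, 11.2 and 11.8 in Soft, 12.4, 12.9 and 13.2 in Soft+mito and 14.1, 13.7 and 15.7 in Soft-TW. Stiff-matrix values were 13.5, 12.9 and 12.1 in Stiff, 14.7, 15.5 and 14.6 in Stiff-TW and 13.0, 11.6 and 13.5 in Stiff+mito. The change was 0.36 ± 0.08 SE, adjusted p = 0.000121 on soft (edgeR). On stiff the log2 fold change was 0.22 ± 0.08 SE, adjusted p = 0.0135 (edgeR), lost without Stiff replicate 3 (0.18, adjusted p = 0.077) and without Stiff-TW replicate 2 (0.18, adjusted p = 0.074), with library totals (adjusted p = 0.0528) and with DESeq2 (adjusted p = 0.0567). The J protein itself, Dnajc19, at 49.2 to 73.1 TPM, was called once, lower with TW on stiff (-0.19).

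Grpel1, the main nucleotide exchange factor of mitochondrial Hsp70 (gene ID 17713, chr5:36465185-36474077), was at 71.2, 66.2 and 74.0 CPM in Soft, 75.7, 80.5 and 80.1 in Soft+mito and 67.3, 65.9 and 69.9 in Soft-TW. On stiff it was at 72.9, 74.1 and 73.1 in Stiff, 55.1, 54.9 and 60.0 in Stiff-TW and 67.5, 66.2 and 65.5 in Stiff+mito. Soft+mito libraries were the highest of the 18 and Stiff-TW libraries the lowest. Grpel1 rose with mito on soft (0.16 ± 0.04 SE, adjusted p = 0.00052, edgeR) and fell with mito on stiff (-0.14 ± 0.04 SE, adjusted p = 0.00237, edgeR), with an interaction of -0.30 ± 0.05 SE, adjusted p = 6.19e-06 (edgeR). It fell with TW on stiff (-0.37 ± 0.04 SE, adjusted p = 4.7e-14, edgeR), while the soft change of -0.06 was not called. Grpel2, at 14.3 to 18.2 TPM, fell on stiff with mito (-0.14) and with TW (-0.25). Grpel1 counts hold reads shared with other genes.

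Matrix processing peptidase is made of Pmpca and Pmpcb, which differed little between groups. Pmpca (gene ID 66865, chr2:26389348-26397121) was at 128, 129 and 129.7 CPM in Soft, 133, 131 and 125 in Soft+mito and 125, 127 and 124 in Soft-TW. The stiff libraries were at 118, 116 and 121 in Stiff, 105, 113 and 108 in Stiff-TW and 116, 110.4 and 114 in Stiff+mito. No stiff library reached any soft library, with log2 fold changes of -0.12 ± 0.03 SE, adjusted p = 0.000446, -0.19 ± 0.03 SE, adjusted p = 3.64e-08 with mito and -0.21 ± 0.03 SE, adjusted p = 1.48e-08 with TW (edgeR). Pmpca counts also hold shared reads. Pmpcb (gene ID 73078, chr5:21737160-21757152) was at 66.2, 64.4 and 67.2 CPM in Soft, 72.8, 68.9 and 73.1 in Soft+mito and 76.8, 68.3 and 67.1 in Soft-TW. Stiff-matrix values were 68.2, 68.7 and 68.2 in Stiff, 65.6, 66.6 and 61.4 in Stiff-TW and 72.1, 65.3 and 69.7 in Stiff+mito. It rose on soft with mito (0.12) and with TW (0.10), where the Soft-TW and Soft libraries overlapped, and it was lower in Stiff-TW than in Soft-TW (-0.13).

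The inner membrane peptidase subunits Immp1l and Immp2l, which trim signals in the intermembrane space, behaved differently. Immp1l (gene ID 66541, chr2:105904638-105965558) was at 28.8, 29.1 and 31.6 CPM in Soft, 28.6, 31.3 and 32.3 in Soft+mito and 20.9, 23.6 and 23.8 in Soft-TW. Its CPM on stiff was 29.3, 27.1 and 27.0 in Stiff, 20.6, 20.1 and 21.4 in Stiff-TW and 29.2, 26.1 and 28.1 in Stiff+mito. Immp1l fell with TW on both matrices, at -0.39 ± 0.06 SE, adjusted p = 2.53e-08 on soft and -0.42 ± 0.06 SE, adjusted p = 4.99e-09 on stiff (edgeR), with no overlap.

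Immp2l (gene ID 93757, chr12:41024061-41955588) was named after its values were seen, since its mean lay under the 5 CPM asked of named genes. It was at 2.91, 3.45 and 3.09 CPM in Soft, 2.30, 2.54 and 2.77 in Soft+mito and 3.31, 3.45 and 3.61 in Soft-TW. On stiff it was at 5.57, 6.59 and 5.30 in Stiff, 5.49, 5.62 and 5.56 in Stiff-TW and 4.77, 5.70 and 5.11 in Stiff+mito. Every stiff library lay above every soft library. The log2 fold changes of stiff against soft were 0.88 ± 0.14 SE, adjusted p = 7.74e-08, 1.03 ± 0.15 SE, adjusted p = 4.25e-09 with mito and 0.68 ± 0.14 SE, adjusted p = 2.41e-05 with TW (edgeR), and neither TW nor mito gave a call. These rest on 39 to 106 counts per library, and the long Immp2l gene overlaps Lrrn3 and 5 other genes. The Immp1l to Immp2l ratio in TPM was 12.4 ± 1.3 (SD, n = 3) in Soft and 6.33 ± 0.78 in Stiff.

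The last members carry import names but act elsewhere. Timmdc1, an assembly factor of respiratory complex I, was at 19.2 to 30.9 TPM and fell with TW, at -0.27 ± 0.06 SE, adjusted p = 5.66e-05 on soft and -0.41 ± 0.06 SE, adjusted p = 6.35e-09 on stiff (edgeR). Tomm34, a cytosolic cochaperone of Hsp70 and Hsp90, was at 22.8 to 35.9 TPM and fell with TW, at -0.15 ± 0.05 SE, adjusted p = 0.00863 on soft and -0.31 ± 0.06 SE, adjusted p = 5.48e-07 on stiff (edgeR).

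By role, the TW drop on stiff covered 6 of 8 genes of the outer membrane gate, with a median log2 fold change of -0.23, and 3 of 5 tested small Tim chaperones, with a median of -0.67. It covered 4 of 5 presequence translocase genes (median -0.29), 4 of 5 motor genes (median -0.24), 2 of 4 protease genes (median -0.10), 2 of 4 sorting and assembly genes (median -0.11), 1 of 3 carrier translocase genes (median -0.03), Chchd4 of the disulfide relay, Timmdc1 and Tomm34. On soft the counts were 5 gate genes, 3 small Tim chaperones, 2 presequence translocase genes, 1 motor gene, 1 protease gene, 2 sorting and assembly genes, 1 carrier translocase gene, Chchd4, Timmdc1 and Tomm34. The share of all genes lower with TW was 34.1% on stiff and 28.0% on soft, and the counts for the carrier translocase on both matrices and for the proteases on soft lie near it. On soft, the motor genes, at 20%, lie below it, and the presequence translocase was at 40%. Each role holds few genes, so 1 gene moves its share far. With mito on stiff, 4 of 5 presequence translocase genes fell (all genes 17.8%), and on soft 0 did (all genes 11.9%).

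The changes with TW and with mito depended on the matrix. For TW, 16 of the 38 import genes had an interaction below 0, meaning a change further down on stiff than on soft (all genes 19.7%), and 1, Tomm7, above 0 (all genes 16.4%). The largest were Timm8a1, Timm10 at -0.55 ± 0.13 SE, adjusted p = 0.000333 and Tomm70a at -0.53 ± 0.04 SE, adjusted p = 1.2e-25, with Tomm7 at 0.35 ± 0.07 SE, adjusted p = 7.63e-06 (edgeR). For mito, 9 were below 0 (all genes 13.1%) and 1, Mtx3, above 0 (all genes 10.4%). Library totals in place of TMM gave 7 below 0 and 1 above for mito, and took the share of genes above 0 among all called genes from 44.3% to 58.1%. The mito interaction of Timm10 (-0.32 ± 0.12 SE, adjusted p = 0.0344, edgeR) was lost in 8 of the 12 fits that left out 1 library, which spanned all 4 groups, and with DESeq2, library totals or only the groups compared (adjusted p = 0.124, 0.0585 and 0.0531).

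**Figure D5:**
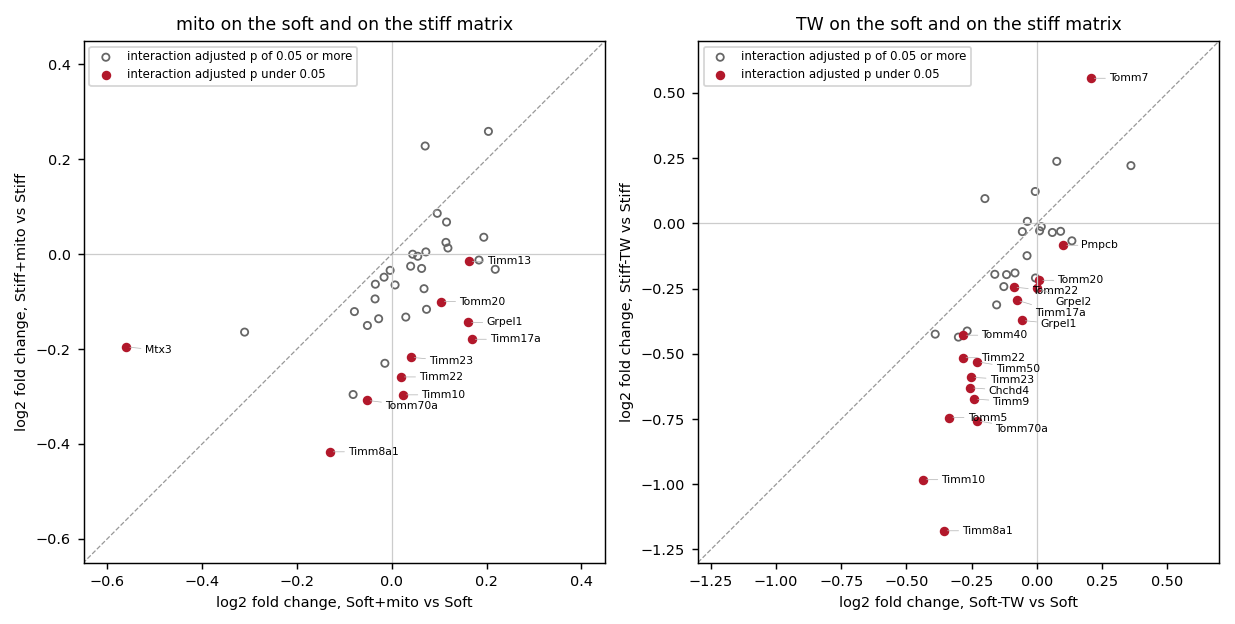
Log2 fold change on the soft matrix (x axis) against that on the stiff matrix (y axis) for mito (left) and TW (right), 1 point per tested import gene, with the line of equal change dashed. Filled points have an interaction adjusted p under 0.05, and most of them lie below the line, with Tomm7 above it for TW and Mtx3 above it for mito.

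Other genes of the pathway were read from a list of 27, chosen with earlier results of these data known. In Stiff-TW against Stiff, 16 were lower (all genes 34.1%) and 7 higher (all genes 35.5%), with a median of -0.16. The 27 ranged from -0.98 to 0.51 on the log2 scale, and the genes named here for TW are all among those that fell. The chaperonin subunits, which fold imported proteins in the matrix, fell together, with Hspd1 at -0.98 and Hspe1 at -0.85 on the log2 scale. Hspa9, the Hsp70 at the heart of the import motor, fell by 0.49, and the cytosolic chaperone Hsp90aa1 was at -0.62. The outer-to-inner membrane contact gene Dnajc11 fell by 0.79. In Soft-TW against Soft, 13 were lower (all genes 28.0%) and 6 higher (all genes 28.9%), with Hsp90aa1 at -0.41, Hspd1 at -0.39 and Mtch2 at -0.29. The highest value of the list there was 0.44. In Stiff against Soft, 12 were higher (all genes 29.1%) and 6 lower (all genes 24.7%), led by Hspa9 at 0.55. With mito, 8 were higher and 1 lower on soft, among them Chchd6 at 0.38, Micos10 at 0.19 and Hspa8 at 0.19 (all genes 14.8% higher and 11.9% lower). With mito on stiff, 5 were higher and 8 lower, among them Romo1 at 0.36, Dnajc11 at -0.28 and Hspd1 at -0.24 (all genes 15.6% higher and 17.8% lower).

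Genes of proteins that Chchd4 folds were read from a list of 20, chosen in the same way. Of these, 4 were lower (all genes 34.1%) and 7 higher (all genes 35.5%) in Stiff-TW against Stiff, with a median of 0.0018. In Soft-TW against Soft, 2 were lower (all genes 28.0%) and 4 higher (all genes 28.9%), so neither higher count stood above the background. Chchd5 rose by 0.70 on stiff and 0.59 on soft, and Uqcrh, a small subunit of respiratory complex III, by 0.45 and 0.32. Both are picked from the higher side, while the 20 ranged from -0.55 to 0.94 on stiff and from -0.17 to 0.59 on soft.

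Mitochondrial ribosomal protein genes, most of whose products are imported, are a second nuclear-encoded mitochondrial set. Of 78 tested, 46 were lower (all genes 34.1%) and 10 higher (35.5%) in Stiff-TW against Stiff, with a median of -0.17. In Soft-TW against Soft, 30 were lower (all genes 28.0%) and 11 higher (28.9%), with a median of -0.08. With mito on soft, 27 were higher (all genes 14.8%) and 0 lower (11.9%). With mito on stiff, 1 was higher (all genes 15.6%) and 16, or 20.5%, were lower, near the 17.8% of all genes (edgeR). On the lower side of Stiff-TW against Stiff, the import genes' share was 65.8%, that of the mitochondrial ribosomal genes 59.0% and that of all genes 34.1%. No test was made between these sets, and nothing is called particular to import genes.

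Genes of the integrated stress response, which is switched on by import failure among other stresses, are given as values beside these. The list was chosen with earlier results of these data known, so its counts describe these genes and are no test of the response. All 8 on the list were higher in Stiff than in Soft (all genes 29.1%), among them Atf5 at 1.00 and Trib3 at 1.34 on the log2 scale. In Stiff-TW against Stiff, 7 were lower (all genes 34.1%) and 1 higher (35.5%), with Atf5 at -1.73, Trib3 at -1.20 and Ddit3, the higher one, at 0.42. In Soft-TW against Soft, 6 were lower (all genes 28.0%) and 2 higher (28.9%), with Atf5 at -0.77 and with Ddit3 at 0.54 and Trib3 at 0.09 as the higher ones. All 8 were lower with mito on both matrices (all genes 11.9% on soft and 17.8% on stiff), by a median of -0.35 on soft and -0.31 on stiff. Their part in the import results was not tested.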

How the data were processed

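Poly(A) RNA of 18 libraries in 6 groups was sequenced, per the labels' protocols, from strand-marking libraries, and mm10 is the build in the submitters' processing notes. No aligner, quantifier or annotation is named by the sources used here. The deposited gene and transcript tables hold the authors' estimated counts (expected counts), of which 10.9% were not whole numbers, and the authors' TPM, and 80 other columns of the gene table were not used. Estimated counts were rounded and tested with edgeR 4.0.16 (R 4.3.3): TMM scaling, a filter on low counts (filterByExpr), 1 mean per group over all 18 libraries, the robust quasi-likelihood test, and Benjamini-Hochberg adjustment over 12245 genes, called at an adjusted p under 0.05. An interaction is the change on stiff minus the change on soft. SE was taken as the log2 fold change over the root of F and is approximate. CPM is scaled by TMM. Levels between genes, and gene ratios, use TPM. Library totals were of about the same size in all libraries. Precision for each gene is set by its counts and by the spread between libraries, and the SE covers these only.

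Named with every library's value were, per comparison, up to 4 higher and 4 lower genes with the largest change among those called, averaging at least 5 CPM and not overlapping between groups, up to 3 each way per interaction, and a fixed set of core genes. Members, lists and named genes were chosen with earlier results of these data known. Alternatives were DESeq2 1.42.0, 2 other scalings, no filter, only the groups compared, a replicate block and leaving out each library. Positions are those of RefSeq GRCm38.p6, which matched all 39 genes by gene ID. Reads shared with other genes (values not whole) touch 4 import genes, and the spans of 21 of the 39 overlap another gene. The script was tested on simulated data.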

Additional observations from a re-analysis of the deposited data

Results flagged for a closer look

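These import genes are singled out because the change with TW or with mito differed between the stiff and the soft matrix by the test of the difference itself (edgeR's quasi-likelihood test of the interaction, adjusted p under 0.05). Each value is the log2 change on stiff minus that on soft, with no explanation weighed.

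For TW, the small Tim chaperones Timm8a1, Timm10 and Timm9 were at -0.82, -0.55 and -0.43. In the outer membrane gate, Tomm70a was at -0.53, Tomm5 at -0.41, Tomm20 at -0.23, Tomm22 at -0.15, Tomm40 at -0.15 and Tomm7 at 0.35. The translocase genes Timm23, Timm50, Timm22 and Timm17a were at -0.34, -0.30, -0.23 and -0.22. Chchd4 was at -0.37, the motor genes Grpel1 and Grpel2 at -0.31 and -0.25, and the protease subunit Pmpcb at -0.19. Pmpcb is the only one of these called higher with TW on soft and not called on stiff.

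For mito, Timm17a was at -0.35, Timm10 at -0.32, Grpel1 at -0.30, Timm8a1 at -0.29, Timm22 at -0.28, Timm23 at -0.26, Tomm70a at -0.26, Tomm20 at -0.20 and Timm13 at -0.18. Mtx3 was at 0.36, because its drop with mito was larger on soft than on stiff.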

How the results depend on the processing

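The 53 named gene values picked by size of change, per comparison or interaction, were recomputed, giving 684 alternative values. Of these, 648 kept direction and call, 36 kept the direction and lost the call, and 0 reversed. Other values given above were not recomputed gene by gene. They include all those of Chchd4, Gfer, Tomm20, Tomm22, Tomm40, Timm22, Timm23, Pmpca, Pmpcb and Immp2l. Of the lost calls, 12 came with all libraries kept: DESeq2 lost 5 (Timm8a1 in Soft+mito against Soft, Pam16 in Stiff-TW against Stiff, Timm44 in Stiff+mito against Soft+mito, Timm17b in Stiff-TW against Soft-TW and the Timm10 mito interaction), library totals lost Pam16, Timm44 and Timm10, only the groups compared lost Timm44 and Timm10, and no filter and size factors of the DESeq2 kind lost Timm44. Of 360 recomputed counts, 16 moved by over 1.5 times, each of them a count of 5 or fewer. With DESeq2, 1 import gene was lower in Soft+mito against Soft and 1 higher in Stiff-TW against Soft-TW, in place of 2 and 2. With only the groups compared, 2 were higher in Stiff+mito against Stiff in place of 1, and with no filter 2 had a TW interaction above 0 in place of 1. Leaving out each library in turn gave 1 to 3 lower in Soft+mito against Soft, 1 to 2 higher in Stiff+mito against Stiff, 3 to 5 higher in Stiff+mito against Soft+mito (3 without Stiff+mito replicate 3), 1 to 2 higher in Stiff-TW against Soft-TW, and 1 to 2 above 0 in the TW interaction. It gave 23 to 26 lower in Stiff-TW against Stiff and 15 to 18 in Soft-TW against Soft. The cause was not tested. The replicate numbers did not pair libraries: same-numbered libraries had a mean correlation of deviations of 0.0003, and 6 of 18 correlated best with their own number. With a replicate block, 12 import genes were higher and 8 lower in Stiff against Soft, 25 lower in Stiff-TW against Stiff, and all 53 named values kept their calls. Depth limits Immp2l and Timm8a2 most.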
